A study of Mus musculus with 12 samples.

Results

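Fc receptors bind the constant part of antibodies and pass that contact on to the cell. The genes described here were the rows of the count table whose symbols begin with Fcgr, Fcer or Fcrl, which gave 5 of the 770 genes counted: Fcgr1, Fcgr4, Fcgrt, Fcrls and Fcrlb. None of the rows began with Fcer, so the common gamma chain gene Fcer1g was not analysed here. The counts came from whole brain total RNA of 12 male C57BL/6 mice, each measured with the nCounter Glial Profiling Panel, in which barcoded probes bound to RNA are counted one by one without amplification.

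The mice formed 3 groups of 4. Mice lacking CD73 (CD73ko) had their middle cerebral artery closed for 50 min and then reopened (tMCAO), which models ischaemic stroke with reperfusion. Mice with a floxed CD73 allele, the controls of the study, had either the same tMCAO or a sham operation, and all brains were taken 3 days later. CD73, encoded by Nt5e, is the surface enzyme that makes adenosine from extracellular AMP. The labels name no Cre line for the floxed mice and give no ages. Nt5e was not among the counted genes, so the genotype could not be checked here, and a CD73ko sham group was not analysed here. Each library came from 1 mouse, per the labels.

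Total counts lay between 724655 and 848853 in 11 libraries and at 293589 in flox sham replicate 4, so low genes were measured least precisely in that mouse. All 5 neuron, 4 astrocyte and 6 oligodendrocyte markers on the panel were above background in all 12 mice. Flox tMCAO replicate 3 stood apart from its group: its mean over 12 microglia markers lay 0.02 below the sham mean on the log2 scale, against 0.57 to 0.88 above it in the other 3 flox tMCAO mice. Its mean over 6 oligodendrocyte markers lay 0.30 below the sham mean, against 0.24 to 0.27 above it in those 3 mice. Some of the fold changes and correlations that this mouse or flox sham replicate 4 could move are also given without it.

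The 5 genes have different roles. Fcgr1 encodes the high-affinity IgG receptor CD64, and Fcgr4 encodes a mouse activating IgG receptor. Both are found on macrophages and other myeloid cells, and both signal through the common gamma chain, whose phosphorylated motif recruits the kinase Syk. Fcgrt encodes the heavy chain of the neonatal Fc receptor, which pairs with beta-2 microglobulin and protects IgG and albumin from breakdown, in endothelium among other cells. Fcrls encodes an Fc receptor-like protein of mouse used as a marker of microglia, the resident macrophages of the brain. Fcrlb encodes an intracellular Fc receptor-like protein studied mainly in B cells.

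The promoter windows of the 3 genes that were higher after tMCAO and of Fcgrt, which was not called, are shown so that they can be read beside the counts. All 5 genes matched the RefSeq promoter table by symbol (assembly GRCm38.p6). Each window runs from 250 bases before to 50 bases after the annotated start. Capitals mark matches, on either strand, to GAGGAA, the core bound by PU.1-type factors, to GAAANNGAAA, the core of interferon-stimulated response elements, and to TTCNNNGAA, the palindrome bound by STAT factors.
Fcgr1 (chr3:96293920-96294219, minus strand): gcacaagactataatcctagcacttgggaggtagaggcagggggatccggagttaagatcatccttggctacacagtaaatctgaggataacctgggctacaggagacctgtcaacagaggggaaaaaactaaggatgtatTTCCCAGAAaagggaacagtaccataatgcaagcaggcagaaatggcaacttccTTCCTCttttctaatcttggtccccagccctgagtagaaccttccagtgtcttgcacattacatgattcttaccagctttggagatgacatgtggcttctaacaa
Fcgr4 (chr1:171018676-171018975, plus strand): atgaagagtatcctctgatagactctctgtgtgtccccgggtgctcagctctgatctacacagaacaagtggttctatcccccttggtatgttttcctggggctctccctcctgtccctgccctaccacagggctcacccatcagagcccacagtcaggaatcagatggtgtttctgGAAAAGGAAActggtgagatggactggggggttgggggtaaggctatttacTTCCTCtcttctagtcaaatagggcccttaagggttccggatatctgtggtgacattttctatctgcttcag
Fcrls (chr3:87263475-87263774, minus strand): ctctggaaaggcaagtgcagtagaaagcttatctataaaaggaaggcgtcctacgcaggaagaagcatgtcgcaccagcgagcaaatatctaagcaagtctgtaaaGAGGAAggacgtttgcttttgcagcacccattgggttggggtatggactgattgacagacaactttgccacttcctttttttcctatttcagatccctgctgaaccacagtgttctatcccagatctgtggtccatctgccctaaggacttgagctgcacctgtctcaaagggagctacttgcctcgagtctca
Fcgrt (chr7:45103773-45104072, minus strand): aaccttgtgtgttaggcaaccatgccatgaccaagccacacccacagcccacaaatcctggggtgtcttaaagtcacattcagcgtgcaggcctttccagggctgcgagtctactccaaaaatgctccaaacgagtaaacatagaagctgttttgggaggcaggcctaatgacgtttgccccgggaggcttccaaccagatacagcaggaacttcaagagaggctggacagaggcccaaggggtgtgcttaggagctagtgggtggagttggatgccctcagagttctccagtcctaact

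The Fcgr1 window held TTCCCAGAA, a STAT-type palindrome, 109 bases before the start, and 1 PU.1-type core as TTCCTC at 55 bases before it. The Fcgr4 window held GAAAAGGAAA, an interferon-stimulated response element core, 73 bases before the start, and 1 PU.1-type core, also as TTCCTC, at 22 bases before it. The Fcrls window held 1 PU.1-type core, as GAGGAA, farther before the start than those of Fcgr1 and Fcgr4. None of the 3 motifs was found in the Fcgrt window, while the window of Fcrlb, also not called, held 1 PU.1-type core. Among 32851 windows of this length in the table, 28.3% held the PU.1-type core, 3.44% the interferon-type core and 8.3% the STAT-type palindrome. The matches overlapped in none of these windows, and they describe the letters only, since binding was not measured.

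Fcgr1, Fcgr4 and Fcrls were higher in tMCAO brains than in sham brains of floxed mice, and Fcgrt and Fcrlb were not called. Values are normalised counts, that is counts scaled to a common library size. Fcgr1 had 113, 157, 168 and 155 normalised counts in the CD73ko tMCAO mice. It had 114, 97.5, 67.9 and 127 in the flox tMCAO mice, against 31.9, 31.7, 28.0 and 38.0 in the flox sham mice. The lowest tMCAO mouse of either genotype lay above the highest sham mouse, and within flox tMCAO the lowest was replicate 3.

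Fcgr4 had 29.1, 53.7, 76.8 and 80.8 normalised counts in the CD73ko tMCAO mice. It had 42.6, 30.2, 47.5 and 37.8 in the flox tMCAO mice, against 7.98, 10.3, 10.8 and 2.54 in the flox sham mice. The value of 2.54 came from 1 raw count in the library of lowest depth. Background was set for each library at the mean of its 8 negative control probes plus 2 SD, and Fcgr4 exceeded it in all 8 tMCAO mice and in 1 of 4 sham mice. Its sham level is therefore known only as a bound.

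Fcrls had 403, 438, 607 and 663 normalised counts in the CD73ko tMCAO mice. It had 404, 421, 249 and 477 in the flox tMCAO mice, against 90.4, 113, 92.0 and 119 in the flox sham mice. As for Fcgr1, flox tMCAO replicate 3 was lowest of the 8 tMCAO mice but still above every sham mouse.

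Fcgrt had 124, 174, 156 and 129 normalised counts in the CD73ko tMCAO mice. It had 140, 151, 115 and 128 in the flox tMCAO mice, against 134, 138, 117.3 and 109 in the flox sham mice. The groups overlapped throughout. Fcrlb stood between 4.69 and 15.8 normalised counts in CD73ko tMCAO, between 5.85 and 7.98 in flox tMCAO and between 2.54 and 9.32 in flox sham mice. It exceeded background in 2, 0 and 1 of the 4 mice of these groups, so 4 of the 5 genes were measured above background in at least 3 mice of some group. Fcgr4 met that rule through the tMCAO groups alone, and the 4 genes cannot be read as all members.

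**Figure D1:**
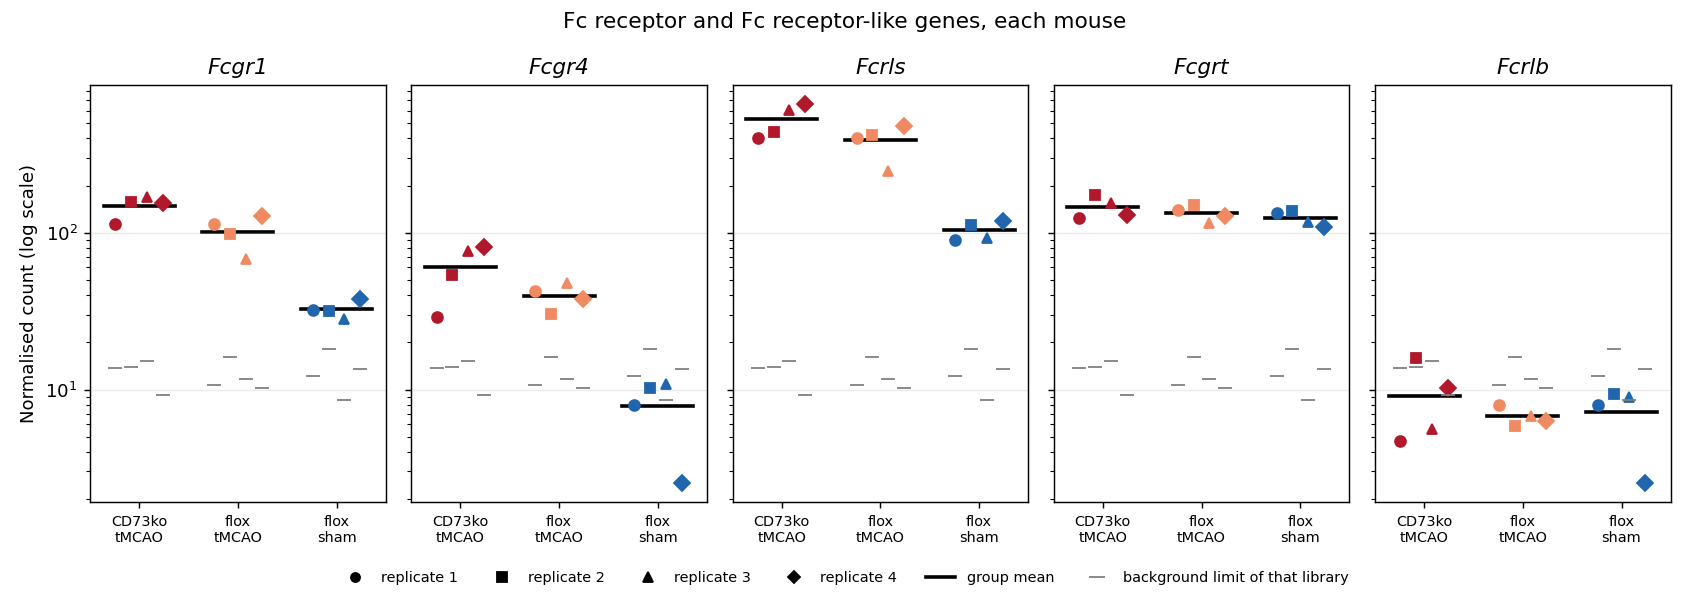
Normalised counts (log scale) of the 5 genes in each of the 4 mice of CD73ko tMCAO, flox tMCAO and flox sham, with group means as black bars and the background limit of each library as a grey tick. Fcgr1, Fcgr4 and Fcrls are higher in all tMCAO mice than in all sham mice, Fcgrt overlaps between groups, and Fcrlb lies near or below background.

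The first comparison set floxed mice after tMCAO against floxed mice after sham surgery, the response of the control genotype. Of the 5 genes, 3 were called higher and none lower by edgeR's quasi-likelihood test at an adjusted p of 0.05, against a background of 14.1% of the 757 endogenous genes called higher and 7.93% called lower. Fcrls averaged 388 ± 97.6 normalised counts after tMCAO and 103.6 ± 14.6 after sham surgery (mean ± SD, n = 4 each), which the fit put at 1.93 ± 0.22 on the log2 scale (± SE; adjusted p = 1.43e-05). Fcgr1 averaged 102 ± 25.6 after tMCAO and 32.4 ± 4.17 after sham surgery, or 1.68 ± 0.21 on the log2 scale (adjusted p = 3.56e-05). Fcgr4 averaged 39.5 ± 7.35 after tMCAO and 7.90 ± 3.78 after sham surgery. With sham counts raised to the background limit, Fcgr4 was at least 2.78-fold higher after tMCAO (adjusted p = 0.000869). For these 3 genes every tMCAO mouse exceeded every sham mouse, as held for 14.5% of all genes tested.

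Fcgrt averaged 134 ± 15.4 normalised counts after tMCAO and 124.5 ± 13.7 after sham surgery, and its log2 fold change had a 95% interval of -0.20 to 0.37 (adjusted p = 0.708). A change of Fcgrt larger than 1.29-fold upwards lay outside that interval. Fcrlb averaged 6.73 ± 0.92 after tMCAO and 7.21 ± 3.17 after sham surgery, with an interval of -1.12 to 0.64 (adjusted p = 0.727). The upper bound of that interval corresponds to 1.56-fold. At a level near background, a fall or a small rise of this gene was not detectable at this depth. In whole brain RNA, more cells of a type and more RNA per cell cannot be told apart.

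The scaling moved the balance of all calls between directions, from 107 higher and 60 lower to 97 and 106 when medians were equalised, to 92 and 92 when housekeeping genes were equalised, and to 68 and 106 after quantile normalisation. Fcgr1, Fcgr4 and Fcrls were called higher under each of these scalings. Without flox sham replicate 4 the log2 fold changes were 1.73 for Fcgr1 and 1.98 for Fcrls, and Fcgr4 was at least 2.78-fold higher. Without flox tMCAO replicate 3 they were 1.84 for Fcgr1 and 2.097 for Fcrls, and Fcgr4 was at least 2.6-fold higher.

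The second comparison set CD73ko mice after tMCAO against floxed mice after tMCAO, the difference between genotypes in the injured brain. No gene of the panel was called in either direction by edgeR (0% of 757), nor by DESeq2 or limma, and so none of the 5. At an unadjusted p under 0.05 edgeR gave 47 genes. The estimates of Fcgr1, Fcgr4 and Fcrls were nevertheless positive. Fcgr1 averaged 148 ± 23.9 normalised counts in CD73ko mice, against 102 ± 25.6 in floxed mice, a log2 fold change of 0.54 with a 95% interval of 0.18 to 0.91 (unadjusted p = 0.00675 and adjusted p = 0.747 by edgeR). Fcgr4 averaged 60.1 ± 23.9 in CD73ko and 39.5 ± 7.35 in floxed mice, a log2 fold change of 0.60 with an interval of 0.02 to 1.19 (unadjusted p = 0.0436 and adjusted p = 0.785 by edgeR). Fcrls averaged 528 ± 127 in CD73ko mice, against 388 ± 97.6 in floxed mice, a log2 fold change of 0.45 with an interval of 0.05 to 0.84 (unadjusted p = 0.0289 and adjusted p = 0.747 by edgeR).

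These 3 genes had an unadjusted p under 0.05 on the higher side, as did 5.94% of all genes, and the share in either direction was 6.21%. In none of the 5 did the 4 mice of the genotypes separate, whereas 2.77% of all genes separated on the higher side. The exact two-sided permutation p over mice was 0.0857 for Fcgr1, 0.229 for Fcgr4 and 0.2 for Fcrls, where 4 against 4 mice can give no less than 0.0286. CD73ko replicate 1 was the lowest of its group for all 3 of these genes and lay within the range of the floxed mice for Fcgr1 and Fcrls. Without flox tMCAO replicate 3 the estimate was 0.39 for Fcgr1, 0.70 for Fcgr4 and 0.28 for Fcrls. The Fcrls estimate without this mouse is less than the one with it by over 1.5 times, while that of Fcgr4 is larger.

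Fcgrt averaged 146 ± 23.4 normalised counts in CD73ko mice after tMCAO, against 134 ± 15.4 in floxed mice, a log2 fold change of 0.12 with an interval of -0.16 to 0.40 (adjusted p = 0.835). Fcrlb averaged 9.08 ± 5.09 in CD73ko and 6.73 ± 0.92 in floxed mice, with an interval of -0.45 to 1.23 (adjusted p = 0.835). The upper bounds of these intervals correspond to 1.32-fold for Fcgrt and 2.35-fold for Fcrlb.

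The third comparison set CD73ko mice after tMCAO against floxed mice after sham surgery, in which genotype and surgery both differ and cannot be told apart. It shares the sham mice with the first comparison, so its values stand beside those above and are not a second test of them. Of the 5 genes 3 were called higher, against 16.1% of all genes called higher and 6.61% called lower. The log2 fold changes were 2.38 ± 0.21 for Fcrls (adjusted p = 1.2e-06 by edgeR) and 2.23 ± 0.20 for Fcgr1 (adjusted p = 1.2e-06 by edgeR). With sham counts raised to background, Fcgr4 was at least 3.95-fold higher (adjusted p = 4.16e-05 by edgeR on the unraised counts). Every CD73ko tMCAO mouse exceeded every sham mouse for these genes, as held for 16.9% of all genes. Fcgrt (0.20 ± 0.13, adjusted p = 0.302) and Fcrlb (0.15 ± 0.39, adjusted p = 0.827) were not called.

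The balance of all calls again depended on the scaling, with 122 higher and 50 lower in the fit described, 102 and 120 when medians were equalised, 101 and 100 when housekeeping genes were equalised, 117 and 76 with DESeq2's size factors and 80 and 147 after quantile normalisation. Quantile normalisation placed the median gene at -0.11 (log2) in this comparison. Relative to that median, and before it, Fcgr1, Fcgr4 and Fcrls were higher under each of these scalings.

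**Figure D2:**
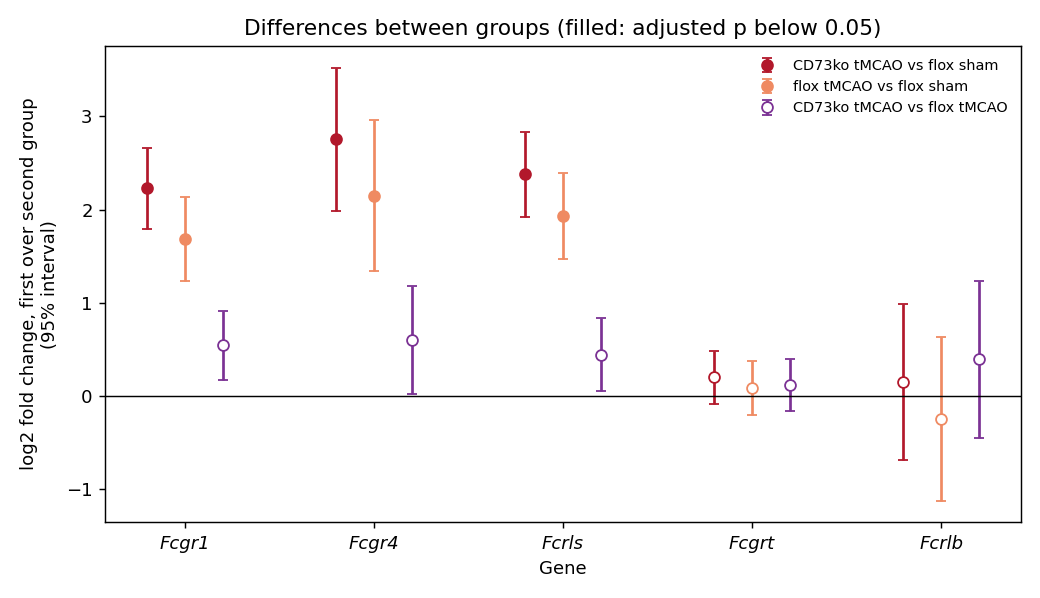
Log2 fold change, first named group over second, of each of the 5 genes in the 3 comparisons, with 95% intervals from edgeR's quasi-likelihood fit; filled points had an adjusted p below 0.05. Fcgr1, Fcgr4 and Fcrls are filled in both comparisons with sham mice, and every comparison of CD73ko with flox tMCAO is open. The fitted points of Fcgr4 against sham, 2.75 and 2.15, exceed the lower bounds given in the text because its sham counts are mostly below background.

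The 5 genes varied unequally within a group. Over the 4 CD73ko tMCAO mice the coefficient of variation was 39.8% for Fcgr4, with a highest value 2.78 times the lowest, against 16.1% for Fcgr1 and 24.0% for Fcrls. The counting error expected at those counts was 12.6% for Fcgr4, 8.06% for Fcgr1 and 4.26% for Fcrls, so each spread between mice exceeded counting error. Over the 4 flox tMCAO mice it was 18.6% for Fcgr4, near its counting error of 15.6%, 25.2% for Fcgr1 and 25.2% for Fcrls. Fcgrt varied by 16.1% in CD73ko tMCAO, 11.5% in flox tMCAO and 10.98% in flox sham mice, where counting error alone gives 8.15%, 8.5% and 9.21%.

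How the genes varied together within groups depended, for Fcgr4, on which mice were kept. After each group's mean was removed, the Pearson correlation over the 12 mice, which share the scaling of each library, was 0.84 between Fcgr1 and Fcrls. It was -0.04 between Fcgr1 and Fcgr4 and 0.06 between Fcgr4 and Fcrls. Without flox tMCAO replicate 3, which had the lowest Fcgr1 and Fcrls of its group and the highest Fcgr4, these 3 values were 0.68, 0.12 and 0.25.

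Without flox sham replicate 4, whose Fcgr4 value was 1 raw count, they were 0.83, 0.29 and 0.36. Without both mice they were 0.63, 0.76 and 0.79 over 10 mice. Over the 8 tMCAO mice alone they were 0.85, 0.33 and 0.35. The correlation of Fcgr4 with Fcgr1 and Fcrls thus varied with the mice kept and has no settled value here. Sham values of Fcgr4 were below background in 3 of 4 mice. Leaving out mice was chosen after the data were seen, and the correlations are descriptions with no test.

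**Figure D3:**
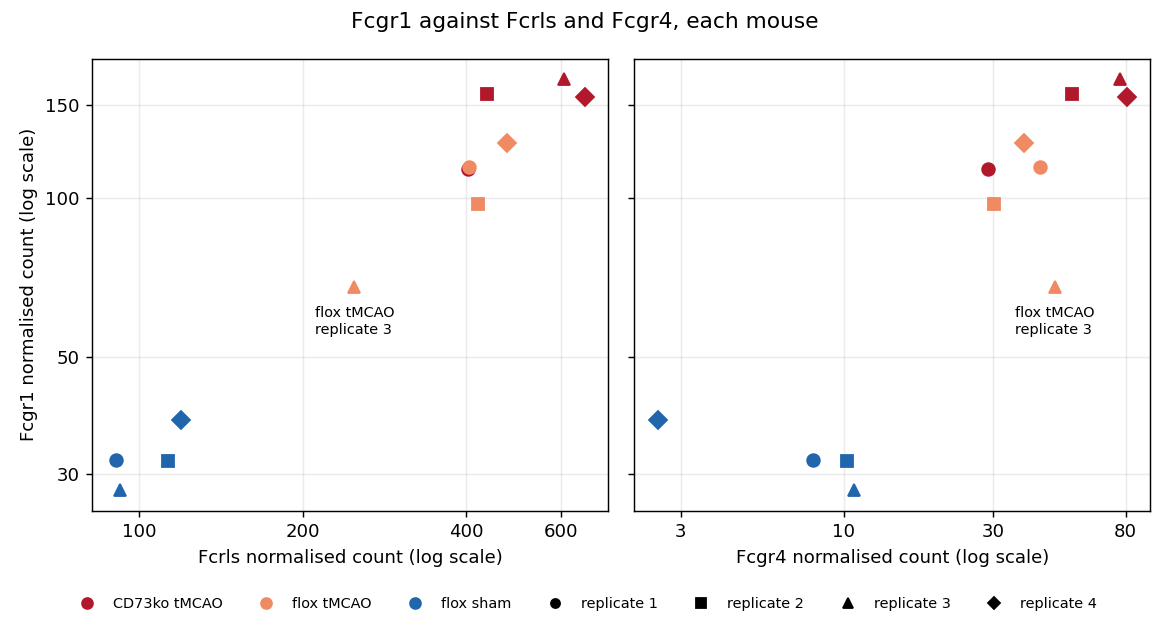
Normalised counts of Fcgr1 (vertical, log scale) against Fcrls (left) and Fcgr4 (right), 1 point per mouse, coloured by group and shaped by replicate number. Flox tMCAO replicate 3 is lowest of its group for Fcgr1 and Fcrls and highest for Fcgr4; the sham values of Fcgr4 are mostly below background.

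Ratios between genes within a brain, which do not depend on the scaling apart from the pseudocount of 1, were tested by two-sided exact permutation of mice. There were 18 such tests, 6 pairs in 3 comparisons, and none passed after Benjamini-Hochberg adjustment, since at least 11 of the 18 would have had to reach the smallest p. The Fcgr1 to Fcrls log2 ratio was -1.81, -2.10, -1.86 and -1.90 in the flox tMCAO mice, against -1.47, -1.80, -1.68 and -1.62 in the flox sham mice. Its difference was -0.27, with all 4 tMCAO mice below all 4 shams (exact permutation p = 0.0286, adjusted p = 0.0735). Fcgr1 relative to Fcgrt differed by 1.49 between flox tMCAO and flox sham mice, and Fcgrt relative to Fcrls by -1.76, each with the same p and adjusted p. Between CD73ko and floxed mice after tMCAO, the Fcgr1 to Fcrls log2 ratio differed by 0.11 (exact permutation p = 0.4, adjusted p = 0.514).

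Many markers of myeloid cells were higher after tMCAO, as were Fcgr1, Fcgr4 and Fcrls but not Fcgrt or Fcrlb. Of 12 measured microglia markers, all above background, 7 were called higher in flox tMCAO against flox sham, 0 in CD73ko against flox tMCAO and 8 in CD73ko tMCAO against flox sham, and none was called lower. Of all genes 14.1%, 0% and 16.1% were called higher in these comparisons. Their summed normalised count lay between 4398 and 5996 in CD73ko tMCAO, between 3328 and 5775 in flox tMCAO and between 2295 and 2695 in flox sham mice. Of 4 measured monocyte and macrophage markers (Lyz2, Cd163, Cd84 and Ms4a4a), 3 were called higher in each comparison with sham. Their sum lay between 277 and 973 in CD73ko tMCAO, between 505 and 611 in flox tMCAO and between 110 and 155 in flox sham mice. No marker of either list was at 0 in any mouse, and none of the 12 neutrophil markers listed was measured. Calls were not limited to myeloid markers. In flox tMCAO against flox sham, 1 of 4 astrocyte, 1 of 6 oligodendrocyte and 2 of 4 endothelial markers were also called higher. Lower were 3 of 5 neuron markers and 1 of 11 T and NK cell markers. The part of the myeloid cells in the Fc receptor results was not tested beyond the ratios that follow.

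With each group's mean removed, the correlation with the mean of the 12 microglia markers over the 12 mice was 0.91 for Fcgr1, 0.82 for Fcrls, -0.02 for Fcgr4 and 0.27 for Fcgrt. Without flox sham replicate 4 alone it was 0.92 for Fcgr1, 0.82 for Fcrls and 0.14 for Fcgr4. Without flox tMCAO replicate 3 alone it was 0.815 for Fcgr1, 0.62 for Fcrls and 0.24 for Fcgr4. Without both mice it was 0.80 for Fcgr1, 0.58 for Fcrls and 0.705 for Fcgr4. Over the 8 tMCAO mice alone it was 0.955 for Fcgr1, 0.91 for Fcrls and 0.17 for Fcgr4. With the mean of the 4 monocyte and macrophage markers it was 0.15 for Fcgr1, 0.32 for Fcrls, 0.47 for Fcgr4 and -0.07 for Fcgrt over the 12 mice. Without flox sham replicate 4 alone it was 0.10 for Fcgr1, 0.29 for Fcrls and 0.88 for Fcgr4. Without flox tMCAO replicate 3 alone it was 0.51 for Fcgr1, 0.72 for Fcrls and 0.45 for Fcgr4. Without those 2 mice it was 0.49 for Fcgr1, 0.715 for Fcrls and 0.87 for Fcgr4. Over the 8 tMCAO mice alone it was 0.14 for Fcgr1, 0.33 for Fcrls and 0.90 for Fcgr4.

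Within CD73ko tMCAO, replicates 1, 2, 3 and 4 had summed monocyte and macrophage markers of 277, 533, 771 and 973 normalised counts and summed microglia markers of 4398, 5040, 5922 and 5996. Both sums ran in the same order as Fcgr4 and as Fcrls in these mice. These are descriptions of libraries that share their scaling.

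Relative to the microglia markers of the same brain, Fcgr1, Fcgr4 and Fcrls were higher after tMCAO. This measure is the log2 level of a gene minus the mean log2 level of the 12 markers, tested by an exact two-sided permutation over mice with adjustment over 12 tests. For Fcgr1 it was -0.83, -0.90, -0.83 and -0.83 in the flox tMCAO mice, against -1.95, -1.78, -2.09 and -1.77 in the flox sham mice. The difference was 1.05, or 2.07-fold (exact permutation p = 0.0286, adjusted p = 0.0429). Flox tMCAO replicate 3, low for Fcgr1 itself, was not low in this ratio. For Fcrls the difference was 1.32, or 2.5-fold, and for Fcgr4 it was at least 1.91-fold with counts raised to the background limit. Each had the same p and adjusted p on the unraised values. For Fcgr4 that p carries no support, since Fcgr4 met the background rule through the tMCAO groups alone. For Fcgrt the difference was -0.44 (exact permutation p = 0.0857, adjusted p = 0.114).

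Against the monocyte and macrophage markers in place of the microglia markers, an alternative chosen after the data were seen, none of these ratios differed at the adjusted threshold. The difference of flox tMCAO from flox sham was then 0.13 for Fcgr1 (exact permutation adjusted p = 0.842), 0.40 for Fcrls (0.381) and 0.85 for Fcgr4 (0.137). A p that misses the threshold does not show that these genes and those markers changed by the same amount.

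Between the genotypes after tMCAO, Fcgr1 relative to the microglia markers was -0.78, -0.45, -0.61 and -0.61 in the CD73ko mice, against -0.83, -0.90, -0.83 and -0.83 in the flox mice. All 4 CD73ko mice lay above all 4 flox mice in this ratio, though not in the level of Fcgr1 itself (exact permutation p = 0.0857). The share of all genes that separate in this ratio is not given here, so the separation cannot be set against it. The mean difference was 0.23, or 1.18-fold (exact permutation p = 0.0286, adjusted p = 0.0429), and it lay between 0.18 and 0.29 with any one mouse left out. With the median of the markers in place of their mean, also chosen after the data were seen, it was 0.15 (adjusted p = 0.267), and against the monocyte and macrophage markers 0.45 (adjusted p = 0.381), so the call rests on the choice of denominator. The adjusted value also rests on the comparisons with sham in the same family, those of Fcgr4 and Fcgrt included. At least 7 of the 12 tests had to reach the smallest p. Fcrls differed by 0.12 (adjusted p = 0.374), Fcgr4 by 0.18 (adjusted p = 0.629) and Fcgrt by -0.21 (adjusted p = 0.343) in the same ratio.

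In CD73ko tMCAO against flox sham mice the same ratio differed by 1.29 for Fcgr1, 1.45 for Fcrls and -0.65 for Fcgrt. For Fcgr4 it was at least 2.16-fold higher with counts raised to the background limit. Each had an exact permutation p of 0.0286 and an adjusted p of 0.0429. For Fcgr4 these are on the unraised values and, as above, carry no support. The 12 markers had a median log2 fold change of 0.94 in this comparison, against 0.00129 over all genes. A gene that does not change therefore falls in this ratio. The lower ratio of Fcgrt, whose own level was not called, is no evidence of a change of Fcgrt.

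**Figure D4:**
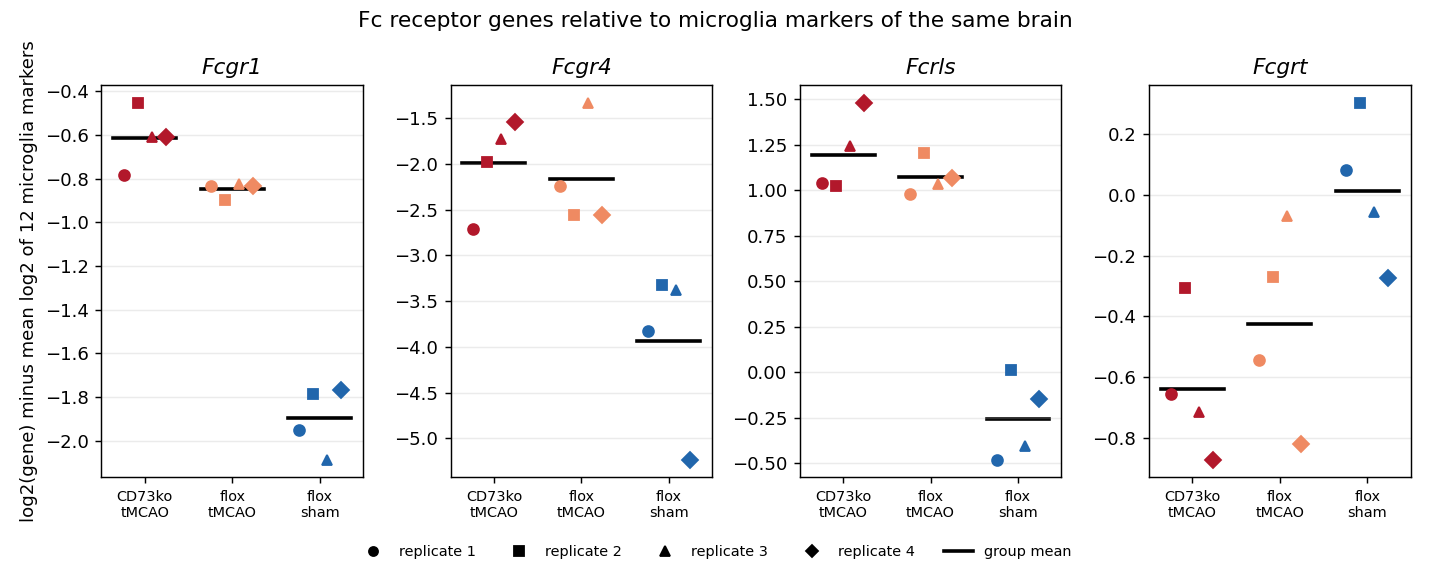
Log2 level of each of 4 Fc receptor genes minus the mean log2 level of 12 microglia markers in the same brain, by group, with group means as black bars; the vertical scales differ between panels. Fcgr1 lies between -0.90 and -0.83 in all 4 flox tMCAO mice, above every sham mouse and below every CD73ko tMCAO mouse.

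Markers of cells in which Fcrlb and the Fc epsilon receptors are studied were low. Above background in at least 3 mice of a group were 2 of 3 measured B cell markers and 1 of 4 of mast cells and basophils, and none of these markers was called in any comparison. Ms4a1, which encodes CD20, exceeded background in 0 CD73ko tMCAO, 0 flox tMCAO and 1 flox sham mice.

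Genes listed for Fc receptor signalling moved in both directions. The list includes Tyrobp, an adaptor other than the common gamma chain through which Fcgr1 and Fcgr4 signal. Of 58 listed genes of Fc receptor signalling, 16 were counted, all above background in at least 3 mice of some group. In flox tMCAO against flox sham, 4 were called higher, 3 lower and 9 were not called, where 14.1% of all genes were called higher and 7.93% lower, with a median log2 fold change of -0.01, the same as over all genes tested. Tyrobp, an adaptor with an activating motif of the gamma chain type, rose to 654 normalised counts in flox tMCAO, against 187 in flox sham mice, a log2 fold change of 1.84 ± 0.19 (adjusted p = 7.29e-06 by edgeR). Ncf1 and Cybb encode subunits of the phagocyte NADPH oxidase. Ncf1 rose by 1.17 ± 0.26 (adjusted p = 0.00436 by edgeR). Cybb, above background in 2 of 4 shams, was at least 2.01-fold higher with sham counts raised to background (adjusted p = 0.0081 by edgeR on the unraised counts). Ptprc, which encodes the phosphatase CD45, was the other gene called higher.

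The 3 that fell encode signalling proteins that neurons also express. Rasgrp1, a Ras activator, fell by 0.44 ± 0.07 on the log2 scale (adjusted p = 0.000355 by edgeR), Itpr1, the inositol trisphosphate receptor of calcium stores, fell by 0.23 ± 0.05 (adjusted p = 0.00435 by edgeR) and Prkce, a protein kinase C, fell by 0.23 ± 0.06 (adjusted p = 0.0165 by edgeR). In CD73ko against flox tMCAO none of the 16 was called and their median was 0.04, against 0.03 over all genes. In CD73ko tMCAO against flox sham 4 were called higher and 2 lower, with a median of 0.05 against 0.00129 over all genes. The list was fixed with earlier results of these data known.

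The panel genes whose pattern over the 12 mice was most like that of each Fc receptor gene were found by Pearson correlation of log2 levels. For Fcgr1 they were Grn (0.99), the progranulin gene, B2m (0.98), which encodes the partner chain of the neonatal Fc receptor, and Trem2 (0.98), a lipid-sensing receptor of microglia. For Fcrls they included Cst7 (0.98), which encodes cystatin F, and Grn (0.98). For Fcgr4 they were the scavenger receptor gene Msr1 (0.98), the junctional adhesion gene F11r (0.98) and the protease inhibitor gene Serpina3n (0.97). For Fcgrt they were weaker: Sox10 (0.83), a transcription factor gene of oligodendrocytes, Aqp4 (0.82), the water channel gene of astrocytes, and Mx1 (0.81), an interferon-induced gene.

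The correlations above include the difference between tMCAO and sham mice. With each group's mean removed, the closest genes over the 12 mice to Fcgr1 were Aif1 (0.97), which encodes the microglia and macrophage protein IBA1, and the oligodendrocyte genes Mag (0.94) and Gjb1 (0.91). Those to Fcrls were Irf8 (0.94), a transcription factor gene of myeloid cells, the cytokine gene Il6 (0.93) and Epb41l2 (0.90), and those to Fcgr4 were Msr1 (0.89), F11r (0.87) and Arpc2 (0.86). Msr1 and F11r were the 2 closest to Fcgr4 by both measures. Those to Fcgrt included the cytokine gene Il10 (0.89) and Erbb3 (0.85). No background filter was applied to the genes compared, and 45 endogenous genes were not above background. In flox tMCAO against sham the log2 fold changes of Il10, Il6 and Mx1 had SEs of 0.47, 0.33 and 0.53, against 0.13 for Fcgrt. These 3 genes were thus measured imprecisely. The correlations named are the highest of 752 for each gene and carry no test. They are given over the 12 mice only. Flox tMCAO replicate 3 was lowest of its group for Fcgr1, Fcrls and the oligodendrocyte marker mean. How far the correlations rest on that mouse was not tested.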

How the data were processed

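Whole brain RNA of 12 mice was counted with the nCounter Glial Profiling Panel. The authors deposited raw counts for 770 genes and 14 control probes. The software that made them was not given in the sources used here. The control probes, classed by their usual panel identities, and the 13 housekeeping genes stayed out of the tests, leaving 757 endogenous genes. The authors' 2 normalised tables were left out, since their 11 sample names match no label. Probe sequences were not used here, so binding to transcripts of related Fc receptor genes could not be examined. Symbols are those of the table.

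Groups were tested in R 4.3.3 with the quasi-likelihood test of edgeR 4.0.16 after TMM scaling, with 1 coefficient per group over 12 mice and Benjamini-Hochberg adjustment over 757 genes. Adjusted p-values are edgeR's unless another test is named. Intervals use the model's 14.4 degrees of freedom, and the SE is the absolute log2 fold change over the square root of F. Normalised counts bring each library to the mean effective size. The background limit lies 2 SD above the mean of 8 negative probes, and 712 genes passed it in 3 or 4 mice of a group. Where a gene called higher did not pass it in 3 sham mice, its fold is a lower bound against that limit. The bound covers background and not the spread between mice, and the adjusted p beside it is for the unraised counts. Ratios used log2(normalised count + 1) and an exact permutation test over 70 assignments. Total counts set the precision, and counting errors cover counting only.

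The members and lists were chosen with earlier results of these data known. By rule every member was described, up to 6 signalling genes of smallest p in flox tMCAO against flox sham were named, and so were the 3 genes most like each member; Ptprc was named besides, and 2 of the genes most like a member are not reported here. Libraries of a group differed by more than counting noise (chi-square over degrees of freedom at least 1.73). The fit was tested on simulated data. Alternatives were 4 other scalings, DESeq2 1.42.0 and limma 3.58.1 as tests, a pseudocount of 10, a background filter, subtraction of the negative probes, a threshold of 0.01, the 2 groups alone, a replicate block and each mouse left out.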

Additional observations from a re-analysis of the deposited data

Results flagged for a closer look

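In 45 sets of 4 mice (5 genes, 6 ratios between genes and 4 ratios to the microglia markers, in 3 groups each), 3 had a mouse set apart from the other 3 by a gap that passed Dixon's 95% limit, where chance flags about 5% of such sets. The count is near that share, and the sets are not independent, since the ratios reuse the same genes. The Fcgr1 to Fcgrt log2 ratio was -1.495 in flox sham replicate 4, the library of lowest depth with 15 raw counts of Fcgr1 and 43 of Fcgrt, and between -2.09 and -2.03 in the other 3 sham mice (gap 0.902 of the range). The Fcgr4 to Fcrls log2 ratio was -3.75 in CD73ko tMCAO replicate 1 and between -3.02 and -2.97 in the other 3 CD73ko mice (gap 0.929 of the range). This mouse also had the lowest sum of monocyte and macrophage markers of its group, 277 normalised counts against 533 to 973. Fcgr1 relative to the microglia markers was -0.90 in flox tMCAO replicate 2 and -0.83 in each of the other 3 flox tMCAO mice (gap 0.888 of the range), within a group whose SD was 0.0329.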

How the results depend on the processing

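The count of called Fc receptor genes was 3, 0 and 3 (flox tMCAO against sham, CD73ko against flox tMCAO, CD73ko tMCAO against sham) under all 12 settings tried and with any one mouse left out. Over those settings the log2 fold change in flox tMCAO against sham ranged from 1.22 to 1.92 for Fcgr1 and from 1.62 to 1.999 for Fcrls. The range was wider for Fcgr4, from 1.48 to 3.59, whose sham counts were mostly below background. Fcgrt was -0.18, -0.0121 and -0.19 in the 3 comparisons after quantile normalisation, with the sign turned. Fcrlb in flox tMCAO against sham was 0.0441 after quantile normalisation and 0.0232 with limma, and in CD73ko tMCAO against sham it ranged from -0.22 (without CD73ko tMCAO replicate 2) to 0.36 with 1 mouse left out. None of these passed. Fcrlb had no value under the background filter.

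With a pseudocount of 10, the Fcgr4 to Fcrls ratio differed by -0.30, -0.00373 and -0.30 in the 3 comparisons, turned in sign, and passed in none. With the median of the microglia markers, 0 ratios to them passed between the genotypes in place of 1. With the monocyte and macrophage markers 0 passed in each comparison, in place of 3, 1 and 4, and Fcgrt between the genotypes differed by 0.00834, turned in sign. The cause was not tested. At an adjusted p of 0.01, 96 of all genes were called in flox tMCAO against sham and 99 in CD73ko tMCAO against sham, in place of 167 and 172. With 1 mouse left out these counts ranged from 125 to 208 and from 110 to 212, the 110 without CD73ko tMCAO replicate 3.

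Replicate numbers did not pair the mice: the correlation of same-numbered deviations lay between -0.248 and 0.169. With the replicate block 145, 0 and 146 genes were called in all, and 3, 0 and 3 of the Fc receptor genes. Depth limited Fcrlb, and the sham level of Fcgr4, to bounds.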
